A study of Mus musculus with 7 samples.

Results

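The basement membrane genes described here are 10 genes that encode the sheet of matrix under epithelium and endothelium and around muscle, fat and nerve: Nid1, Nid2, Col4a1, Col4a2, Lama2, Lama4, Lamb1, Lamb2, Lamc1 and Hspg2. All 10 were found by name among the 17209 genes of the deposited table. Nid1 was selected on its counts, which were tightly grouped and higher after pMCAO than after sham surgery, and the other 9 were chosen by name as its partners in the basement membrane. Differences of Nid1 between the groups are therefore given as a description, without a test.

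The libraries came from muscularis macrophages, the resident macrophages between the smooth muscle layers and nerve plexus of the gut wall. CX3CR1-GFP+ cells were sorted from peeled muscle of the small intestine of C57BL6/J mice 24 h after surgery. The groups were 3 libraries after pMCAO surgery (stroke, in the words of the series title) and 4 libraries after sham surgery. Age is not given in the labels, the description of pMCAO 3 names a pool, and nothing else says which animals entered a library, so p-values measure the spread between these libraries. Total counts were 12685941 to 21680302 in pMCAO libraries and 18873893 to 34432716 in sham libraries, so precision was lowest in pMCAO 1. The defining macrophage genes were abundant in both groups, although 9 of 10 macrophage markers had negative log2 changes after pMCAO (median -0.37). Csf1r, which encodes the CSF1 receptor, was at 1813 ± 172 CPM (counts scaled to the library total, SD, n = 3) after pMCAO and 2316 ± 576 CPM (n = 4) after sham surgery, and Cx3cr1, the reporter locus, at 175 ± 43.3 and 256 ± 37.5 CPM.

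A basement membrane is built from a laminin network and a collagen IV network, joined by nidogens and by the heparan sulfate proteoglycan perlecan. Laminins are trimers of an alpha, a beta and a gamma chain, and the common collagen IV molecule joins Col4a1 and Col4a2 chains. In the gut wall such sheets surround smooth muscle cells, glia, adipocytes and blood vessels, and they are made by those cells and by fibroblasts more than by leukocytes. In bulk libraries like these, more cells of a type and more RNA per cell cannot be told apart.

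The nidogens link laminin to collagen IV. Nid1 encodes nidogen-1, also called entactin, and Nid2 its paralog nidogen-2. Nid1 (ENSMUSG00000005397, chromosome 13, 13437551 to 13512269 of GRCm38) was at 42.2, 39.5 and 42.8 CPM in pMCAO 1 to 3, against 11.8, 10.9, 11.8 and 9.48 CPM in Sham 1 to 4. The groups did not overlap, and the lowest pMCAO library lay 3.34-fold above the highest sham library. The means were 41.5 ± 1.80 CPM (SD, n = 3) and 10.99 ± 1.08 CPM (SD, n = 4), a 3.78-fold ratio and a fitted log2 change of 1.92 (SE 0.23). The coefficient of variation was 4.33% after pMCAO, where counting error alone gives 3.78%, and 9.86% after sham surgery, where it gives 6.14%. No other member had so small a spread in either group, which is the trait Nid1 was selected on.

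Nid2 (ENSMUSG00000021806, chromosome 14, 19751265 to 19811787) was at 32.0, 24.4 and 43.2 CPM in the pMCAO libraries, against 21.9, 32.3, 31.4 and 40.7 CPM in the sham libraries. The groups overlapped over most of their range, and the log2 change of 0.07 had a 95% interval from -0.49 to 0.64 (adjusted p = 0.933, from the edgeR quasi-likelihood fit over all genes that also gave every other adjusted p of a gene). Within a library the log2 ratio of Nid1 to Nid2 counts was 0.36 ± 0.35 after pMCAO and -1.49 ± 0.50 after sham surgery, so Nid2 counts were the higher in all sham libraries and in pMCAO 3 (-0.01). This ratio does not depend on the scaling of the library. Exons of Nid2 share 437 bases with Rtraf on the opposite strand, and since the strand setting of the counting is not given in the sources used here, reads there cannot be assigned to either gene.

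The stretch at the RefSeq start of Nid1 is shown because this gene defines the group, with GC boxes (GGGCGG on either strand) in capitals. It spans 250 bases before to 50 after the start on the plus strand of GRCm38.p6 (chr13:13437352-13437651), and the same stretch of Lamb1, the member nearest to Nid1 in its pattern over the libraries, is from the plus strand of chr12:31265043-31265342.
Nid1: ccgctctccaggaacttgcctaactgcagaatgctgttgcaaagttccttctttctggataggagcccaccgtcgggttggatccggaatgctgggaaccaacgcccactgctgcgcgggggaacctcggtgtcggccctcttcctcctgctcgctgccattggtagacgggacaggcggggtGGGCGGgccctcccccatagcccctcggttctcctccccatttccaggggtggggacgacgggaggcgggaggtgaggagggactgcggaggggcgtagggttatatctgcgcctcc
Lamb1: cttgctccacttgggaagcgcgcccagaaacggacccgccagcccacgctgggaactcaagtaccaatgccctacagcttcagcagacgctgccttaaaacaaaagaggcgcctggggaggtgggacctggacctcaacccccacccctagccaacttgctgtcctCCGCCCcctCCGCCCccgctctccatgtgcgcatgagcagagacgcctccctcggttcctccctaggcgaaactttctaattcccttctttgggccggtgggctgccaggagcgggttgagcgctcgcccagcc
RefSeq promoter stretches were found for 7 of the 10 members. A GC box was present in 6 of these 7, against 35.7% of all 32851 stretches of this length, a CCAAT box (CCAAT on either strand) in 4 of 7, against 37.4%, and a TATA box (TATAAA on either strand) in 0 of 7, against 13.6%. The stretches of Col4a1 and Col4a2 overlap, and 1 GC box in the overlap was counted for both genes. No matches of different motifs overlapped (0 in these 7 stretches), and a match is only a match of letters. The Nid1 stretch held 1 GC box and 1 CCAAT box, and that of Lamb1 held 2 and 1.

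**Figure D1:**
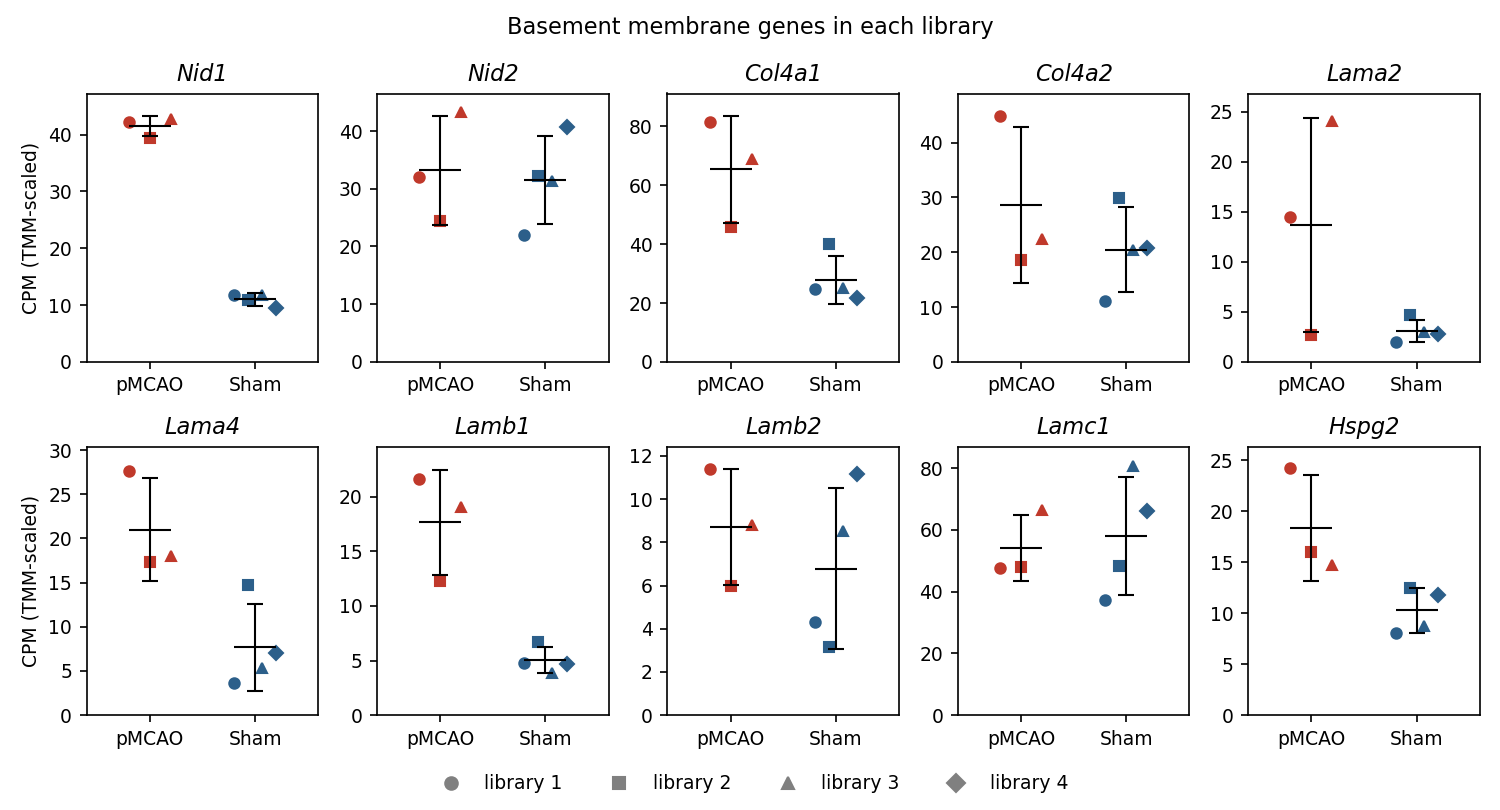
TMM-scaled CPM of each of the 10 genes, with a point per library (marker shape gives the library number), pMCAO left and Sham right, and the mean with SD in black. Every pMCAO library lies above every sham library for Nid1, Col4a1, Lama4, Lamb1 and Hspg2, and the groups overlap for the other 5 genes.

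Among the 9 other members, 8 had higher means after pMCAO and 1, Lamc1, had a lower mean, with a median log2 change of 0.83, against -0.02 over all 17209 genes, of which 48.7% had higher and 51.3% lower means. None of the 9 passed at an adjusted p of 0.05, where 0.0988% of all genes passed. With the DESeq2 Wald test 4 passed, as did 2.77% of all genes, and with limma-voom 0, as did 0.203%. At an unadjusted p under 0.05 by edgeR there were 5, all higher (Col4a1, Lama2, Lama4, Lamb1 and Hspg2), where 13.4% of all genes lay in either direction, 6.97% higher and 6.47% lower. In 4 of the 9 (Col4a1, Lama4, Lamb1 and Hspg2) every pMCAO library lay above every sham library, as in 5.99% of all genes. The genes were chosen as partners of Nid1 in this contrast, so these shares are a description. Without pMCAO 2, 3 of the 9 passed (Col4a1, Lama2 and Lamb1), where 100 of all 17209 genes passed. Without Sham 2 only Col4a1 of the 9 did, where 47 of 17166 genes passed. Among the other 5 fits that left out a library none of the 9 did.

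Collagen IV forms the network that gives the sheet its tensile strength. Col4a1 (ENSMUSG00000031502, chromosome 8, 11198423 to 11312826) was at 81.6, 45.8 and 69.0 CPM after pMCAO, against 24.6, 39.9, 25.1 and 21.8 CPM after sham surgery. The groups did not overlap, but pMCAO 2 and Sham 2 lay close together. The log2 change was 1.23 (SE 0.26, adjusted p = 0.0718), which missed the threshold.

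Col4a2 (ENSMUSG00000031503, chromosome 8, 11312805 to 11449287) was at 45.0, 18.5 and 22.4 CPM, against 11.1, 29.9, 20.3 and 20.7 CPM in the sham libraries. Here pMCAO 1 was above all sham libraries and the other pMCAO libraries lay within their range. The log2 change was 0.48 (95% interval -0.28 to 1.24, adjusted p = 0.586). Within a library the log2 ratio of Col4a2 to Col4a1 counts was -0.86, -1.31 and -1.62 in the pMCAO libraries and -1.150, -0.42, -0.31 and -0.07 in the sham libraries, a mean difference of -0.78. By a two-sided exact permutation test, p was 0.114, or 0.257 adjusted over the 3 ratios tested. The smallest p that this test allows for 3 against 4 libraries is 0.0571, because it doubles the smaller tail, so no ratio could reach 0.05.

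The genes for these chains lie head to head, on opposite strands, and their annotated first exons share 22 bases. Their RefSeq start stretches are shown because the counts of this pair differed in how they varied although the starts lie side by side. Capitals mark the 78 bases that both stretches hold (11312777 to 11312854), read 5′ to 3′ on the strand of each gene, minus for Col4a1 (chr8:11312777-11313076) and plus for Col4a2 (chr8:11312555-11312854).
Col4a1: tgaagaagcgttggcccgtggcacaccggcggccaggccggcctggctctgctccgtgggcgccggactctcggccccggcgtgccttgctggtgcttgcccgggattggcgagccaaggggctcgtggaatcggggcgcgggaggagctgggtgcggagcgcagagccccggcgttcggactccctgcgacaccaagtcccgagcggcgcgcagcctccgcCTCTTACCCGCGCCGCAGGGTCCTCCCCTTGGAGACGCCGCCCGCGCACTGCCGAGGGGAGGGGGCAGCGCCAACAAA
Col4a2: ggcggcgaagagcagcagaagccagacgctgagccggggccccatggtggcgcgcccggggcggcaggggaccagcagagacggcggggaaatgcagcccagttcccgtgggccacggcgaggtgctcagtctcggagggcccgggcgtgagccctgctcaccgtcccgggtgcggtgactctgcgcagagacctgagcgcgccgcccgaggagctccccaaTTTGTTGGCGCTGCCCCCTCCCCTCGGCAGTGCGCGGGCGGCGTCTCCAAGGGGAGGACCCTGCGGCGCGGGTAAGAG
The stretch of Col4a1 held 1 GC box and that of Col4a2 held 3, and each had 1 CCAAT box. The GC box of Col4a1 lies in the shared bases and is also 1 of the 3 of Col4a2.

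Laminin alpha chains carry the binding sites for cell surface receptors. Lama2 encodes alpha-2, the chain of muscle and Schwann cell sheets (ENSMUSG00000019899, chromosome 10, 26980036 to 27619758). It was at 14.4, 2.68 and 24.1 CPM after pMCAO, against 1.95, 4.65, 2.98 and 2.83 CPM after sham surgery. The libraries pMCAO 1 and pMCAO 3 were above all sham libraries, whereas pMCAO 2 lay among them. Its log2 change was 2.14 (SE 0.58, adjusted p = 0.146). It was 1.46 without pMCAO 3 and 2.64 without pMCAO 2, where it passed (adjusted p = 0.0215, in a range of 0.0117 to 0.985 over all settings).

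Lama4 encodes alpha-4, a chain found in vessel walls (ENSMUSG00000019846, chromosome 10, 38965515 to 39110188). Its levels were 27.7, 17.3 and 18 CPM, against 3.64, 14.8, 5.30 and 7.04 CPM in the sham libraries, so the groups did not overlap and Sham 2 lay nearest to the pMCAO libraries. The log2 change was 1.45 (SE 0.42, adjusted p = 0.184). The log2 ratio of Lama4 to Lama2 counts went both ways, with 1.07 ± 1.55 after pMCAO and 1.17 ± 0.39 after sham surgery (difference -0.11, exact permutation p = 0.971, adjusted p = 0.971).

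Beta and gamma chains complete the trimer. Lamb1 (ENSMUSG00000002900, chromosome 12, 31265234 to 31329644), the beta chain of many sheets, was at 21.6, 12.3 and 19.0 CPM, against 4.77, 6.71, 3.88 and 4.70 CPM after sham surgery. Every pMCAO library was above every sham library, and the log2 change was 1.81 (SE 0.35, adjusted p = 0.0590), the smallest adjusted p of the 9.

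Lamb2 (ENSMUSG00000052911, chromosome 9, 108479736 to 108490530), the beta chain of muscle and synaptic sheets, was at 11.4, 5.98 and 8.80 CPM, against 4.31, 3.14, 8.52 and 11.2 CPM. The sham libraries fell into a lower pair (Sham 1 and 2) and a higher pair (Sham 3 and 4), and the pMCAO values all lay above the lower pair and overlapped with the higher pair. The log2 change was 0.35 (95% interval -0.65 to 1.36, adjusted p = 0.783). The log2 ratio of Lamb1 to Lamb2 counts was 0.93, 1.04 and 1.11 after pMCAO and 0.15, 1.09, -1.13 and -1.24 after sham surgery. The difference of 1.31 gave an exact permutation p of 0.171 (adjusted p = 0.257).

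Lamc1 (ENSMUSG00000026478, chromosome 1, 153218922 to 153332786) encodes gamma-1, the gamma chain that most laminins share. It was at 47.8, 47.9 and 66.6 CPM after pMCAO, against 37.4, 48.4, 80.6 and 66.1 CPM after sham surgery, and the pMCAO values all lay inside the sham range. The log2 change was -0.10 (95% interval -0.65 to 0.45, adjusted p = 0.893).

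Hspg2 (ENSMUSG00000028763, chromosome 4, 137468769 to 137570630) encodes perlecan, the proteoglycan that holds growth factors in the sheet. It was at 24.3, 16.01 and 14.7 CPM, against 8.06, 12.5, 8.73 and 11.8 CPM after sham surgery, without overlap. The log2 change was 0.83 (SE 0.31, adjusted p = 0.272).

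**Figure D2:**
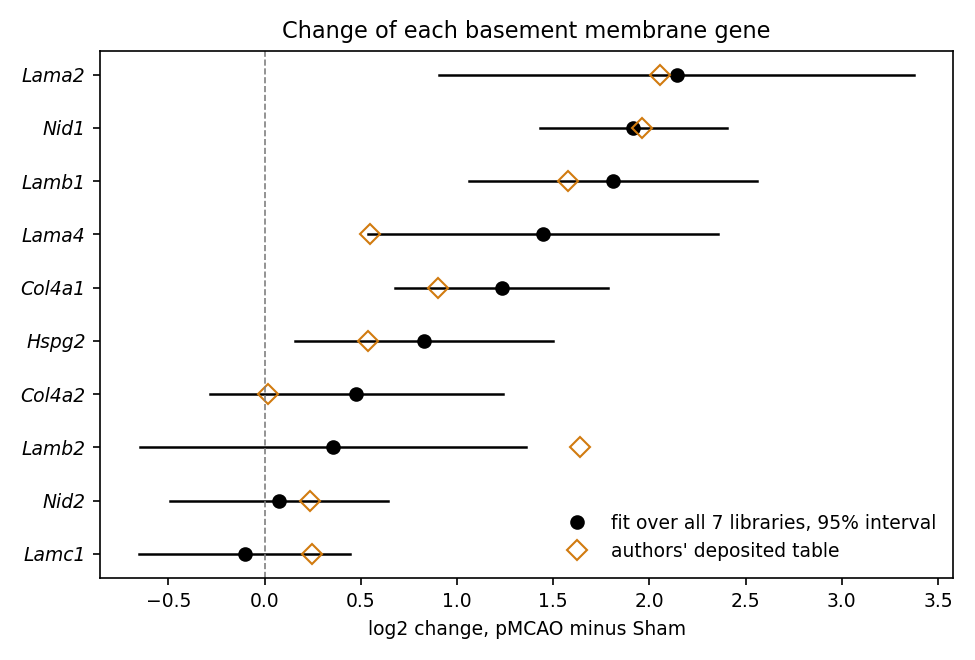
Log2 change, pMCAO minus Sham, of each gene, ordered by size, from the fit over all 7 libraries with its 95% interval (black) and from the authors' deposited table (open diamonds). The intervals of Nid2, Col4a2, Lamb2 and Lamc1 include 0, that of Nid1 is a description because this contrast chose the gene, and the authors' value of Lamb2 (1.64) lies above the interval.

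The members differed in level as well as in change. Levels were compared between genes as CPM per kb of exon, since exon length was 5.17 kb for Nid2 and 16.3 kb for Lama2. After sham surgery Lamc1 (7.03 ± 2.31 CPM per kb) and Nid2 (6.10 ± 1.48) were highest, followed by Col4a1 (3.73 ± 1.09), Col4a2 (3.10 ± 1.16) and Nid1 (1.58 ± 0.156). The ranges of each of these neighbours overlapped. Lama2 was lowest, at 0.190 ± 0.0689 CPM per kb, below every sham value of Lamb1, its neighbour at 0.506 ± 0.121.

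After pMCAO Col4a1 was highest at 8.77 ± 2.43 CPM per kb, above Lamc1 (6.54 ± 1.31), Nid2 (6.42 ± 1.83) and Nid1 (5.98 ± 0.259), all of which overlapped with their neighbours. Nid1 took 12.1%, 17.1% and 13.04% of the counts of the 10 members in the pMCAO libraries and 9.11%, 5.38%, 5.92% and 4.83% in the sham libraries. Lamc1 took 13.7%, 20.8% and 20.3% against 28.8%, 23.8%, 40.6% and 33.7%. The summed level of the 10 members was 348, 230 and 329 CPM after pMCAO, against 130, 203, 199 and 196 CPM after sham surgery.

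**Figure D3:**
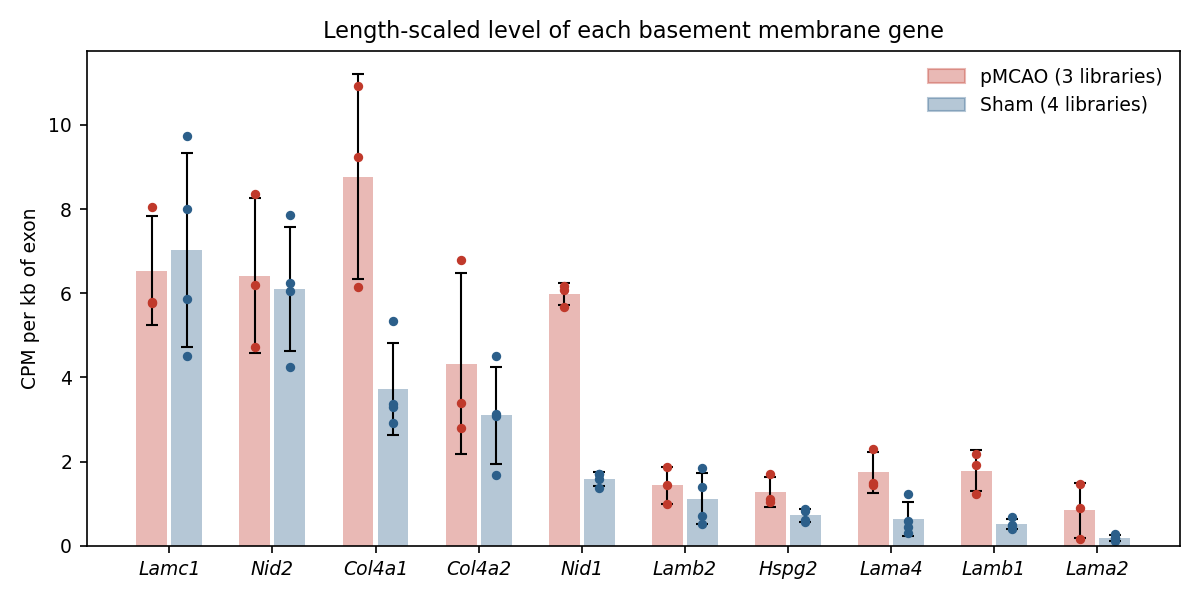
CPM per kb of exon of each gene, ordered by the sham mean, with pMCAO left and Sham right in each pair (bars are means, error bars SD, points libraries). Lamc1 and Nid2 are high in both groups, while Nid1 is at 5.98 CPM per kb after pMCAO and 1.58 after sham surgery.

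Marker genes of other cells that make basement membranes were measured beside the members. Of 10 fibroblast markers 9 were listed, all with positive log2 changes (median 2.00), and 0 passed by edgeR (7 at an unadjusted p under 0.05), 2 by DESeq2 and 0 by limma-voom, where over all genes 13.4% lay at an unadjusted p under 0.05 and 2.77% passed by DESeq2. Their summed level was 472, 108 and 539 CPM in pMCAO 1 to 3, against 55.9, 165, 59.2 and 70.2 CPM in Sham 1 to 4. Dcn, the matrix proteoglycan decorin, was at 151, 31.8 and 202 CPM, against 17.4, 55.6, 24.0 and 18.4 CPM. Of 10 blood endothelial markers all were listed, all with positive log2 changes (median 1.08), and 0 passed by edgeR (6 at an unadjusted p under 0.05), 4 by DESeq2 and 0 by limma-voom, against the same 13.4% and 2.77%. They summed to 564, 397 and 420 CPM, against 210, 361, 127 and 131 CPM. Of 7 pericyte markers 4 were listed, 3 with positive and 1 with a negative log2 change. They summed to 234, 63.0 and 300 CPM, against 91.0, 124, 110 and 109 CPM. The negative change was that of Kcnj8 (log2 change -1.90), at 1.12 ± 0.996 and 4.14 ± 3.05 CPM, with 0 counts in pMCAO 2. Of the pericyte markers 0 passed by edgeR (2 at an unadjusted p under 0.05), 1 by DESeq2 and 0 by limma-voom, beside those shares. No listed fibroblast or endothelial marker was at 0 in any library. Mitochondrial ribosomal RNA took 12.6%, 8.26% and 8.84% of the counts, against 5.82%, 2.95%, 3.24% and 2.42%, and its part in the differences was not tested.

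The members and the marker sums were set side by side within each group. Within the pMCAO group, pMCAO 2 had the lowest fibroblast and endothelial sums and was the lowest library for 8 of the 10 members. Within the sham group, Sham 2 had the highest sums and was the highest library for 6 of the 10. Nid1 was at 39.5 CPM in pMCAO 2 and 10.9 CPM in Sham 2. It was selected on being tight within the groups and different between them, so its values beside the marker sums follow from that choice and are a description. The joint score of both marker lists, a mean log2 CPM centred over all libraries, was 1.26, 0.226 and 0.928 in the pMCAO libraries and -0.73, 0.235, -1.04 and -0.89 in the sham libraries. The nearest pair across the groups was pMCAO 2 and Sham 2. Between these libraries Lamb2 was 1.91-fold and Lamb1 1.83-fold higher in pMCAO 2, where 13.1% and 13.9% of all genes had a higher ratio. The 3.61-fold ratio of Nid1, exceeded by 4.53% of all genes, follows from its choice. Hspg2 (1.28-fold), Lama4 (1.17-fold), Col4a1 (1.148-fold) and Lamc1 (0.990-fold) differed less, and Nid2 (0.756-fold), Col4a2 (0.619-fold) and Lama2 (0.578-fold) were lower in pMCAO 2. A pair of single libraries has no replicate check.

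With the joint marker score as a covariate the log2 change of Lamb1 was 0.89 (SE 0.59), of Col4a1 0.26 (SE 0.36), of Lama2 0.25 (SE 1.18), of Lama4 0.22 (SE 0.57) and of Hspg2 0.29 (SE 0.56). The members did not all move towards 0. Lamb2 rose from 0.35 to 1.17 (SE 1.09), and Nid2 (-0.15), Col4a2 (-0.63) and Lamc1 (0.28) changed sign. The median over the 9 members other than Nid1 was 0.26, against 0.83 without the covariate. That of Nid1 was 1.87 (SE 0.43), a description that is not set against the other members because Nid1 was selected on tight groups. The score was higher in pMCAO 1 and pMCAO 3 than in any sham library and widened the errors, so an effect of pMCAO on these genes and a larger share of stromal RNA cannot be told apart here.

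**Figure D4:**
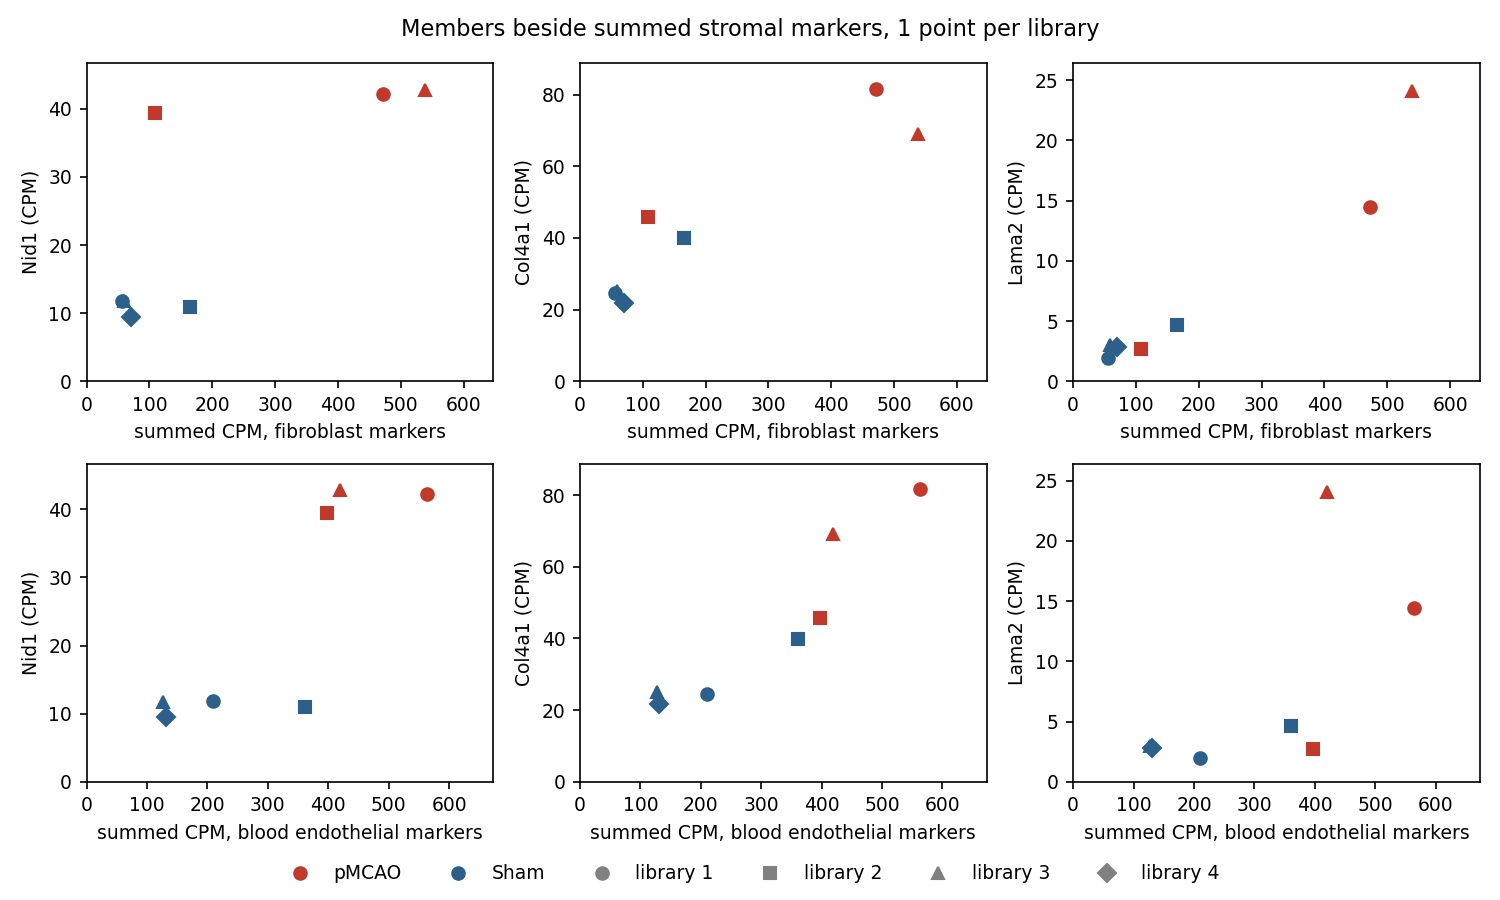
Nid1, Col4a1 and Lama2 (CPM, columns) against the summed CPM of fibroblast markers (upper row) and blood endothelial markers (lower row), with a point per library (marker shape gives the library number). Col4a1 is at 45.8 CPM in pMCAO 2 and 39.9 CPM in Sham 2, Lama2 in pMCAO 2 (2.68 CPM) lies among the sham libraries, and Nid1 is shown as a description because it was selected on tight groups.

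The 5 genes of at least 5 CPM whose log2 CPM followed Nid1 most closely over the 7 libraries, of 11587 ranked by Pearson r, were Zc3h12c (r = 0.99), Yod1 (0.99), a gene listed by a clone name (0.98), Egfr (0.98) and Hif3a (0.98). The value is a description, since the libraries form the same groups that chose Nid1. Zc3h12c, a member of the CCCH zinc finger family of the RNase regnase-1, was at 66.2, 66.5 and 73.8 CPM, against 37.8, 35.4, 37.0 and 31.2 CPM. Yod1, a deubiquitinase, was at 74.7 ± 0.902 and 45.5 ± 2.09 CPM. Egfr, the receptor of epidermal growth factor, was at 86.7 ± 19.0 and 30.3 ± 2.53 CPM. Of the other members Lamb1 ranked highest, at place 45 (r = 0.94), followed by Col4a1 at 188 (r = 0.89), while Nid2 (r = 0.06) and Lamc1 (r = -0.10) were the least like.

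Other chains and associated proteins of the basement membrane had mostly higher means. Of 25 listed for this comparison 17 were measured, 16 with positive log2 changes, and the median was 0.74, with 0 past the threshold by edgeR and 5 at an unadjusted p under 0.05, all higher (6.97% of all genes). By DESeq2 2 passed (2.77% of all genes), by limma-voom 0, and without Sham 2 1 did (47 of 17166 genes). Sparc, a collagen-binding matricellular protein, was at 100, 120 and 61.1 CPM, against 38.7, 73.1, 27.6 and 30.7 CPM (log2 change 1.14, SE 0.32, adjusted p = 0.162). Lama5, the alpha-5 laminin chain, was at 9.31, 8.34 and 5.33 CPM, against 3.54, 2.97, 2.22 and 2.28 CPM, without overlap (log2 change 1.48, SE 0.44, adjusted p = 0.190). Hmcn1, the large matrix protein hemicentin-1, was scarce, at 2.61 ± 1.11 and 0.580 ± 0.445 CPM (adjusted p = 0.289).

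Cell surface receptors of the basement membrane went both ways. Of 14 measured 8 had positive and 6 negative log2 changes, the median was 0.20, 0 passed by edgeR, and at an unadjusted p under 0.05 there were 5 higher and 3 lower (6.97% and 6.47% of all genes). By DESeq2 2 passed (2.77% of all genes), by limma-voom 0, and without Sham 2 1 did (47 of 17166 genes). Sdc3, the proteoglycan syndecan-3, was at 88.3, 98.8 and 62.0 CPM, against 129, 159, 164 and 202 CPM, with every pMCAO library below every sham library (log2 change -0.98, SE 0.21, adjusted p = 0.0764), where 6.58% of all genes show that order. Itga1, the alpha chain of a collagen IV receptor integrin, was at 98.1, 42.8 and 98.4 CPM, against 29.1, 48.2, 13.1 and 19.9 CPM, so that pMCAO 2 lay below Sham 2 (adjusted p = 0.161). Itga2, the alpha chain of another collagen receptor, was at 7.63 ± 5.46 and 2.67 ± 0.612 CPM (adjusted p = 0.236).

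Enzymes and chaperones that assemble collagen IV and laminin did not share a direction. Of 15 measured, 7 had positive and 8 negative log2 changes, with a median of -0.12, 0 past the threshold by edgeR (1 by DESeq2, 0 by limma-voom) and 4 at an unadjusted p under 0.05, of which 3 were higher. Over all genes 13.4% lay at an unadjusted p under 0.05 and 2.77% passed by DESeq2. Pxdn, the peroxidase that crosslinks collagen IV, was at 22.0, 18.8 and 22.7 CPM, against 10.01, 11.8, 6.66 and 6.49 CPM, without overlap (log2 change 1.27, SE 0.31, adjusted p = 0.119). Plod2, a lysyl hydroxylase of collagens, was at 6.96 ± 3.44 and 1.75 ± 1.38 CPM (adjusted p = 0.217). Sec23a, a coat subunit of the vesicles that carry secreted proteins from the endoplasmic reticulum, was at 49.9 ± 16.3 and 33.5 ± 6.96 CPM (adjusted p = 0.338).

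The log2 changes in the authors' deposited table rest on fewer libraries. Over the 11588 genes of at least 5 CPM they equalled, with an R-squared of 0.9998, a weighted sum of the library log2 CPM with weights of 0.429 for pMCAO 1, 0.567 for pMCAO 3 and -0.999 for Sham 2, and weights within 0.001 of 0 for the other 4 libraries. For Nid1 the authors' deposited table gives 1.96, near the 1.92 over all libraries. For Lamb2 the authors' deposited table gives 1.64 against 0.35 here, and for Lama4 it gives 0.55 against 1.45. Sham 2 was the lowest sham library for Lamb2 and the highest for Lama4. In the authors' deposited table the FDR of the 9 members other than Nid1 ran between 0.164 and 0.989.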

How the data were processed

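The deposited table held raw read counts per gene, which the authors obtained, per the submitters' processing notes, with tools that include STAR, featureCounts and limma on GRCm38, also called mm10. The deposited CPM values equal the count over the library total, to within 0.0005. The log2 fold changes, mean log2 expression, p-values and FDR are the authors', and their model is not given in the sources used here. Each of the 17209 genes listed exceeds 0.5 CPM in at least 4 libraries, so genes seen in pMCAO libraries alone are not listed. Per the labels, 2.0 ng of RNA entered each library.

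Counts were tested with the edgeR (4.0.16, R 4.3.3) quasi-likelihood F test, two-sided, robust, with TMM factors (0.922 to 1.06), filterByExpr (no gene was removed), group as the only term and Benjamini-Hochberg adjustment over all genes at 0.05. CPM in the text are TMM-scaled. The SE is the log2 change over the square root of F. Reads without molecular identifiers are not independent, and 3 counts equal 0.0871 to 0.236 CPM, which covers counting error only. Ratios used 0.5 counts as pseudocount. Exon lengths and positions are from GENCODE M21 (GRCm38), which holds 99.5% of the genes. The authors' log2 changes were regressed on centred log2 CPM.

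The members and lists were chosen with earlier results of these data known. Named were all members, the 3 genes of smallest p per pathway list, up to 3 most abundant markers per list, macrophage check genes and the 5 genes most like Nid1. Further genes named with their values were chosen after these were seen. Alternatives covered scaling, filters, DESeq2 1.42.0, limma-voom (limma 3.58.1), a replicate block, a marker covariate, offsets for exon length and GC content (mgcv 1.9.3), the threshold and leaving out each library.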

Additional observations from a re-analysis of the deposited data

Results flagged for a closer look

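Among the 4 sham libraries, 29 sets of values were checked for a library far from the others, and chance flags about 1 in 20. The summed level of the 10 members was 130 CPM in Sham 1, against 196 to 203 CPM in the other sham libraries. The summed level of the assembly enzymes and chaperones was 1569 CPM in Sham 1, against 2147 to 2194 CPM. The summed fibroblast markers were at 165 CPM in Sham 2, against 55.9 to 70.2 CPM. The summed mesothelial markers, of which 3 of 6 were listed, were at 4.36 CPM in Sham 1, against 1.32 to 1.72 CPM.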

How the results depend on the processing

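Between settings the log2 change of Nid1 ran from 1.79 to 1.96. Leaving out a library could not turn it, because the groups do not overlap. Of the 9 other members 0 passed in the fit reported. There were 2 over genes of at least 5 CPM, 4 with DESeq2, 2 at a threshold of 0.10 and 0 to 3 when leaving out a library. The number of genes called, 17, was 29 without scaling factors (where the median of all genes moved to -0.14 from -0.02), 75 over genes of at least 5 CPM, 476 with DESeq2, 35 with limma-voom, 98 at a threshold of 0.10, 0 with the marker score as a covariate (974 at an unadjusted p under 0.05 by edgeR), and 0 to 100 when leaving out a library. The lowest count, 0, was without pMCAO 1 (1987 at an unadjusted p under 0.05 by edgeR). The other libraries gave 100 without pMCAO 2, 7 without pMCAO 3, 47 without Sham 1, 47 without Sham 2, 18 without Sham 3 and 9 without Sham 4. Of the other chains 2 passed with DESeq2 and 0 to 1 when leaving out a library. Of the receptors 2 passed with DESeq2, 1 over genes of at least 5 CPM, 1 at a threshold of 0.10 and 0 to 1 when leaving out a library. Of the assembly genes 1 passed with DESeq2. The direction of Nid2 turned without scaling factors (-0.063), with the marker score as a covariate (-0.15), without pMCAO 3 (-0.16) and without Sham 1 (-0.07). That of Col4a2 turned with the marker score (-0.63) and without pMCAO 1 (-0.003444), and that of Lamc1 with the marker score (0.28), with the replicate block (0.0195) and without Sham 3 (0.094). When leaving out a library, Nid2 ran from -0.16 to 0.26, Col4a2 from -0.003444 to 0.72 and Lamc1 from -0.28 to 0.09. The log2 ratio of Lama4 to Lama2 turned without pMCAO 3 (0.64) and without Sham 2 (0.06), its range being -0.91 to 0.64. The cause was not tested. The adjusted p of Lamb1 ran from 0.000139 to 0.894 between settings and that of Col4a1 from 0.00168 to 0.944. With the replicate number as a block 21 genes and 0 of the 9 members passed. Samples with the same number did not deviate together, with correlations of -0.07, -0.01 and 0.09, so the numbers were not taken to pair them. DESeq2 size factors within edgeR and no expression filter gave 17 genes each, and offsets for exon length and GC content 22, with Nid1 at 1.88.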

Other observations

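Marker genes of other gut wall cells that lie on a basement membrane were also measured. Of 8 smooth muscle markers 3 had positive and 5 negative log2 changes (median -0.46), and their sum was 94.0, 162 and 170 CPM after pMCAO, against 112, 85.5, 238 and 223 CPM after sham surgery. By edgeR 2 of the 8 lay at an unadjusted p under 0.05, both lower, where 6.47% of all genes lay lower. Myh11, the smooth muscle myosin heavy chain, was at 32.2, 51.9 and 104 CPM, against 22.7, 8.77, 73.6 and 60.8 CPM (log2 change 0.60). Acta2 was at 22.7 ± 2.80 and 41.7 ± 19.8 CPM (log2 change -0.88). Actg2 was at 21.51 ± 16.45 and 28.02 ± 11.83 CPM (log2 change -0.38). Of 7 glia and Schwann cell markers 4 were listed, all with positive log2 changes (median 1.42). Their sum was 22.2, 16.5 and 23.3 CPM after pMCAO, against 7.49, 8.69, 8.625 and 9.21 CPM after sham surgery, without overlap. The means were 20.7 ± 3.65 and 8.50 ± 0.722 CPM. Cdh19, a cadherin of Schwann cells, was at 3.76, 9.46 and 12.4 CPM, against 1.59, 0.258, 0.555 and 2.501 CPM (log2 change 2.78, SE 0.69, adjusted p = 0.127 by edgeR).

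All 4 markers of the interstitial cells of Cajal, the pacemaker cells of the gut, had positive log2 changes (median 0.76). By edgeR, DESeq2 and limma-voom 0 passed, and 1 lay at an unadjusted p under 0.05 by edgeR, where 13.4% of all genes did. Their sum was 327, 91.3 and 163 CPM after pMCAO, against 93.2, 130, 123.5 and 133 CPM after sham surgery. In pMCAO 2 the sum was thus below that of every sham library. Etv1, the most abundant of them, was at 155, 70.9 and 116 CPM, against 66.6, 76.1, 89.4 and 75.8 CPM. Its pMCAO 1 and pMCAO 3 values lay above all sham libraries. Kit was at 91.1, 3.44 and 17.05 CPM, against 7.70, 19.3, 10.6 and 33.3 CPM, so that for Kit pMCAO 1 stood far above the rest. Ano1 was likewise highest in pMCAO 1, at 49.65, 2.40 and 11.1 CPM, against 4.98, 15.66, 17 and 19.63 CPM. Only 2 of 6 adipocyte markers were listed. Car3, an abundant gene of adipocytes, was at 4.96, 159 and 1.57 CPM, against 0.308, 0.946, 4.54 and 4.92 CPM. Lipe, the other, was at 30.5 ± 8.68 and 28.95 ± 4.79 CPM (log2 change 0.07). Of 6 lymphatic endothelial markers 3 were listed, with a sum of 17.6 ± 3.09 and 12.1 ± 2.53 CPM. Their log2 changes differed, at 2.78 for Pdpn, 0.72 for Flt4 and -0.02 for Prox1. Pdpn was scarce, at 3.90 ± 2.41 and 0.566 ± 0.201 CPM, without overlap. By edgeR 0 of the 3 passed (1 at an unadjusted p under 0.05, as did 13.4% of all genes). By DESeq2 1 passed (2.77% of all genes) and by limma-voom 0. The 6 epithelial markers summed to 23.2 ± 7.99 and 23.9 ± 15.6 CPM. Of the 10 macrophage markers 9 had negative log2 changes (median -0.37). By edgeR 0 passed (5 at an unadjusted p under 0.05), by DESeq2 3 and by limma-voom 0, where over all genes 13.4% lay at an unadjusted p under 0.05 and 2.77% passed by DESeq2, with a sum of 15640 ± 2778 and 20590 ± 2253 CPM. C1qb was at 1964, 1953 and 1021 CPM, against 2345, 3879, 2940 and 3335 CPM, without overlap (log2 change -0.92, SE 0.25, adjusted p = 0.146 by edgeR).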
